A study of Mus musculus with 6 samples.

Results

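The genes mt-Tp, mt-Te and mt-Nd6 were followed in small RNA sequencing of pancreatic islets from mice with 2 versions of Mrpp3. They are 3 of the 37 genes of the mouse mitochondrial chromosome, and 3 of the 9 that are read from its reverse strand in the GENCODE annotation. They were taken by name, at their annotated positions on that strand. All mice had eaten a high-fat diet for 14 weeks. Each genotype had 3 libraries: Mrpp3WT, called wild type below, and Mrpp3N434S, called mutant, which carries the N434S allele by its label. The design text of the series gives 3 mice per genotype. The sources used here do not state the strain, sex, age, zygosity of the allele or whether animals were pooled. The series asked about small RNA coverage and about mismatches at position 9 of the tRNAs.

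Mitochondrial DNA is transcribed on both strands into long precursors, in which tRNAs sit between other genes. RNase P cuts at the 5′ end of each tRNA and ELAC2 cuts at its 3′ end, and MRPP3 is the nuclease subunit of RNase P. The light-strand transcript starts in the control region and runs from high to low coordinates, through mt-Tp (the proline tRNA), then mt-Te (the glutamate tRNA), then mt-Nd6. mt-Nd6 encodes a subunit of respiratory complex I and is the only protein-coding gene on that strand. No tRNA follows directly at its 3′ end. A partner of MRPP3 in the RNase P complex, MRPP1, methylates the base at position 9 of mitochondrial tRNAs, and a methylated base can make reverse transcriptase stop or insert another base.

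The sequences of both tRNA genes are shown because their ends and single bases carry the results. They were read from the reference column of the deposited files, complemented to the RNA strand, and equal the GENCODE vM21 transcripts of build GRCm38. Capitals mark base 9 and the anticodon, at bases 31 to 33 in both, with base 1 at the 5′ end of the gene. The terminal CCA of a mature tRNA is not encoded.
mt-Tp: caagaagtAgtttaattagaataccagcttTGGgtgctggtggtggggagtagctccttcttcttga
mt-Te: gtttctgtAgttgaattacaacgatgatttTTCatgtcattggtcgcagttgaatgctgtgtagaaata

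mt-Tp (ENSMUSG00000064372.1) is 67 nt long and lies at chrM:15356-15422. mt-Te (ENSMUSG00000064369.1) is 69 nt long and lies at chrM:14071-14139, 1216 nt further along the transcript. mt-Nd6 (ENSMUSG00000064368.1) is 519 nt long, lies at chrM:13552-14070 and is a single exon. The last base of mt-Te and the first base of mt-Nd6 are neighbours. The junction is shown because the cut that frees the 3′ end of mt-Te falls on it, and the 5′ start of mt-Nd6 is shown because most of the gene's depth in the wild type lay there. In the junction, capitals mark the last 15 bases of mt-Te. In mt-Nd6, capitals mark the start codon.
junction (chrM:14056-14085): TGCTGTGTAGAAATAatgaataattatatt
mt-Nd6 first 100 bases (chrM:13971-14070): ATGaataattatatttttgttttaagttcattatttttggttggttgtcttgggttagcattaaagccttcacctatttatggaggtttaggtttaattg

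The values are depths, that is, the number of aligned bases counted at a position on one strand. Libraries held between 3156761 and 10923311 counted bases on the mitochondrial chromosome, and mutant replicate 1 was the deepest. The reverse strand took 11.9% to 13.6% of them for Mrpp3WT against 5.68% to 7.95% for Mrpp3N434S, so levels depend on what they are scaled to. Main levels were scaled with edgeR's TMM factors over 34 mitochondrial genes. The counts cover the mitochondrial chromosome only, so neither the Mrpp3 allele nor islet markers could be checked. Below, sets of 3 values are in the order of replicates 1, 2 and 3 of the genotype named. In such bulk samples, fewer cells of a type and less RNA per cell cannot be told apart.

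mt-Te had by far the highest mean depth per base of the 3 genes. None of the 3 differed between genotypes past the threshold in depth over the whole gene. The normalized mean depth per base of mt-Te was 565, 426 and 484 for Mrpp3WT against 424, 405 and 298 for Mrpp3N434S. Every mutant library was below every wild-type library, though the lowest wild-type and the highest mutant library were nearly level. The group means were 491 ± 69.9 and 376 ± 67.9 (SD, n = 3 each). Of the 34 genes tested, 15 (44.1%) had groups that did not overlap. The log2 difference of mt-Te, mutant minus wild type, was -0.39 (SE 0.25, 95% interval -0.89 to 0.11, adjusted p = 0.240 by edgeR's quasi-likelihood test with Benjamini-Hochberg adjustment). In that test 2 of 34 genes passed the threshold of 0.05, which is 5.88%, with 1 higher and 1 lower. Without wild-type replicate 2 it was -0.58 (adjusted p = 0.0456), and without mutant replicate 2 it was -0.55 (adjusted p = 0.0389), both past the threshold. Scaled to library totals, the mt-Te difference was -0.81 with an adjusted p of 0.0210 in edgeR. Scaled to the summed tRNA genes it was 0.015. The median of all genes was -0.03 on the main scale, -0.43 with library totals and 0.37 with the tRNA genes, and the genes passing were then 1 higher and 8 lower, and 12 higher and 0 lower.

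mt-Tp, the proline tRNA, had a normalized depth of 36.8, 47.9 and 27.0 for Mrpp3WT against 102, 44.6 and 34.1 for Mrpp3N434S. Mutant replicate 1 stood above all other libraries, and the other mutant libraries lay within the wild-type range. The means were 37.2 ± 10.4 and 60.1 ± 36.3 (SD, n = 3 each). The log2 difference was 0.72 (SE 0.30, 95% interval 0.12 to 1.32, adjusted p = 0.0850 in edgeR). Without mutant replicate 1 it was 0.064 (adjusted p = 0.911), and without mutant replicate 3 it was 1.03 (adjusted p = 0.00133). Scaled to the summed tRNA genes it was 1.13 (adjusted p = 0.0174), to library totals 0.28 (adjusted p = 0.600) and to the summed rRNA genes 0.0035 (adjusted p = 0.992).

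mt-Nd6, the complex I subunit, had a normalized depth of 13.1, 18.7 and 18.5 for Mrpp3WT against 20.9, 16.5 and 17.2 for Mrpp3N434S. The groups overlapped, with means of 16.8 ± 3.19 and 18.2 ± 2.38 (SD, n = 3 each). Its log2 difference was 0.17 (SE 0.24, 95% interval -0.32 to 0.66, adjusted p = 0.632 in edgeR). The sign changed to -0.24 with library totals and to -0.50 with the summed rRNA genes as the scale, and to -0.018 without wild-type replicate 1. It was 0.58 (adjusted p = 0.0730) with the summed tRNA genes and 0.63 (adjusted p = 0.0846) with reverse-strand depth as the scale.

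**Figure D1:**
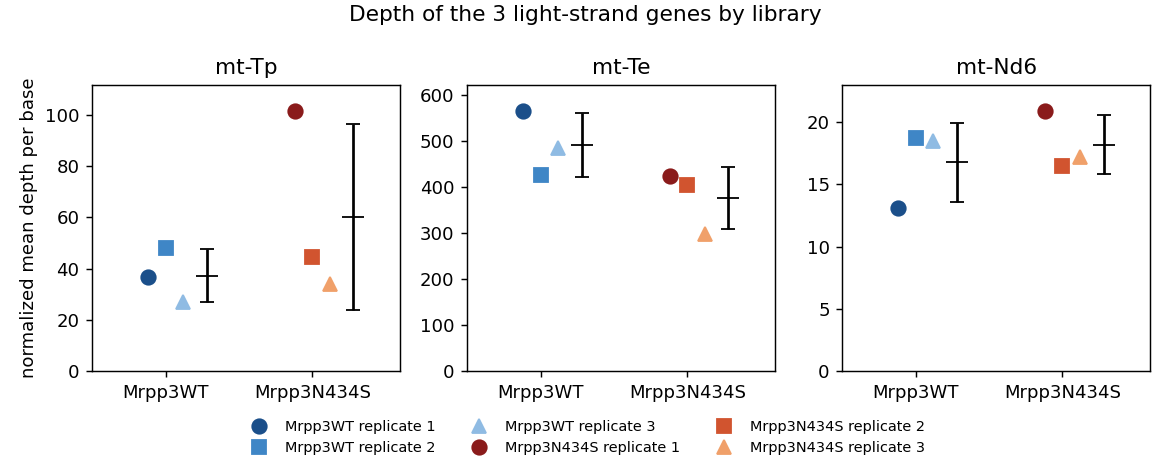
Normalized mean depth per base of mt-Tp, mt-Te and mt-Nd6 (vertical axes, each from 0) in the 3 Mrpp3WT and 3 Mrpp3N434S libraries. Points are libraries, and black bars are the mean ± SD. Mutant replicate 1 stands apart for mt-Tp at 102, and the mt-Te libraries of the mutant lie at 424 or below.

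By mean depth over all 6 libraries, mt-Te ranked 9 of the 37 genes and 7 of the 22 tRNAs. mt-Tp ranked 23 of 37 and 14 of the 22 tRNAs, and mt-Nd6 ranked 32 of 37 and 12 of the 13 protein-coding genes. Per base, mt-Te exceeded mt-Nd6 by a ratio of 43.1, 22.8 and 26.1 for Mrpp3WT against 20.3, 24.6 and 17.4 for Mrpp3N434S. These ratios overlapped between genotypes (two-sided exact permutation test, p = 0.2, adjusted p = 0.3 over 6 values). The smallest p that 3 against 3 libraries can give is 0.1. The ratio of mt-Tp to mt-Te was 0.0651, 0.112 and 0.0559 for Mrpp3WT against 0.240, 0.110 and 0.115 for Mrpp3N434S (exact permutation p = 0.2, adjusted p = 0.3). The ratio of mt-Tp to mt-Nd6 was 2.81, 2.56 and 1.46 for Mrpp3WT against 4.86, 2.71 and 1.99 for Mrpp3N434S (exact permutation p = 0.5, adjusted p = 0.6). By mean depth over the whole gene, the order mt-Te above mt-Tp above mt-Nd6 was thus the same in every library. By highest depth, mt-Nd6 exceeded mt-Tp in wild-type replicate 3, at 62 against 37. The proline tRNA, which comes first on the transcript, had the lower depth of both tRNAs. Whether it was rarer or was read less often per molecule cannot be told from depths.

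As a share of all reverse-strand depth, mt-Tp was 0.429%, 0.550% and 0.303% for Mrpp3WT against 1.76%, 0.599% and 0.560% for Mrpp3N434S. All mutant shares were above all wild-type shares (exact permutation p = 0.1, adjusted p = 0.3). As a share of both strands, mt-Tp differed by 0.0099 percentage points (exact permutation p = 0.8), beside the smaller reverse-strand share of the mutant libraries. For mt-Nd6 the shares were 1.18%, 1.67% and 1.61% against 1.71% to 2.80%, again without overlap (exact permutation p = 0.1, adjusted p = 0.3), while its share of both strands differed by -0.0312 percentage points (exact permutation p = 0.2). For mt-Te the shares overlapped, at 5.04% to 6.78% for Mrpp3WT against 5.03% to 7.55% for Mrpp3N434S (exact permutation p = 0.8, adjusted p = 0.8). Such shares were not computed for the other genes. With reverse-strand depth as the scale, 29 of the 34 genes tested had a higher estimate in the mutant and 5 a lower one.

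Most tRNAs of the same strand had lower estimates in the mutant on the main scale, and higher ones when scaled to the tRNA genes or to reverse-strand depth. Of the 8 light-strand tRNAs, 7 had a lower and 1 a higher estimate in the mutant, with a median log2 difference of -0.34, and 0 passed the threshold. Scaled to the summed tRNA genes this median was 0.07 with 1 passing, higher, and to the summed reverse-strand depth 0.12 with 0 passing. With library totals it was -0.76 with 4 passing, all lower, and with rRNA genes -1.02 with 7 passing, all lower. Over all tRNAs, 19 of 22 were deep enough to test, and 16 of them had a lower estimate, with a median of -0.27 and 1 passing. Of the 7 mitochondrial complex I mRNAs, which include mt-Nd6, 5 had a higher and 2 a lower estimate, with a median of 0.24, and 0 passed. That median was -0.17 with library totals (0 passing) and -0.42 with rRNA genes as the scale (2 passing, lower). It was 0.65 with tRNA genes and 0.69 with reverse-strand depth, where all 7 were higher and 4 passed. The median over all 34 genes was -0.03, with 16 higher and 18 lower. By normalized depth across the 6 libraries, the genes closest to mt-Te were mt-Ta and mt-Th, with root mean square differences in centred log2 depth of 0.13 and 0.18 against a median of 0.38 over 33 genes. The closest to mt-Tp were mt-Co1 and mt-Co3 (0.27 and 0.33, median 0.63). Mutant replicate 1 was the highest library of mt-Tp, mt-Co1 and mt-Co3, at 102, 117 and 75.5, and closeness was not computed without it. The closest to mt-Nd6 were mt-Nd1 and mt-Co2 (0.19 and 0.21, median 0.31).

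Along the transcript, depth fell to almost nothing between both tRNAs. Over the 877 nt between the end of the chromosome numbering and mt-Tp, which holds the control region, mean reverse-strand depth was 287 to 396 for Mrpp3WT against 306 to 366 for Mrpp3N434S. Over the 1216 nt between mt-Tp and mt-Te, mean depth was 1.50, 1.18 and 1.09 for Mrpp3WT against 2.16, 1.48 and 1.28 for Mrpp3N434S. Wild-type libraries left 709 to 761 of these positions without a read on that strand. Mutant libraries left 413 to 475. Total depth was 3156761 to 4337052 for Mrpp3WT against 5461367 to 10923311 for Mrpp3N434S. Reverse-strand depth was 392550 to 589848 for Mrpp3WT against 434381 to 620910 for Mrpp3N434S, which overlapped. Why mutant libraries left fewer positions was not tested, and how many other stretches differed in this way was not counted. The highest point of the interval was a small peak at 152 nt upstream of mt-Te, with depths of 21, 13 and 10 for Mrpp3WT against 20, 9 and 9 for Mrpp3N434S. The 50 nt window on this peak (chrM:14251-14300) had normalized depths of 16.7, 17.4 and 14.3 for Mrpp3WT against 9.68, 8.32 and 6.77 for Mrpp3N434S, without overlap. Its log2 difference was -0.88 (SE 0.38, adjusted p = 0.0564 in edgeR), which did not pass the threshold. The share of all windows without overlap was not counted.

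**Figure D2:**
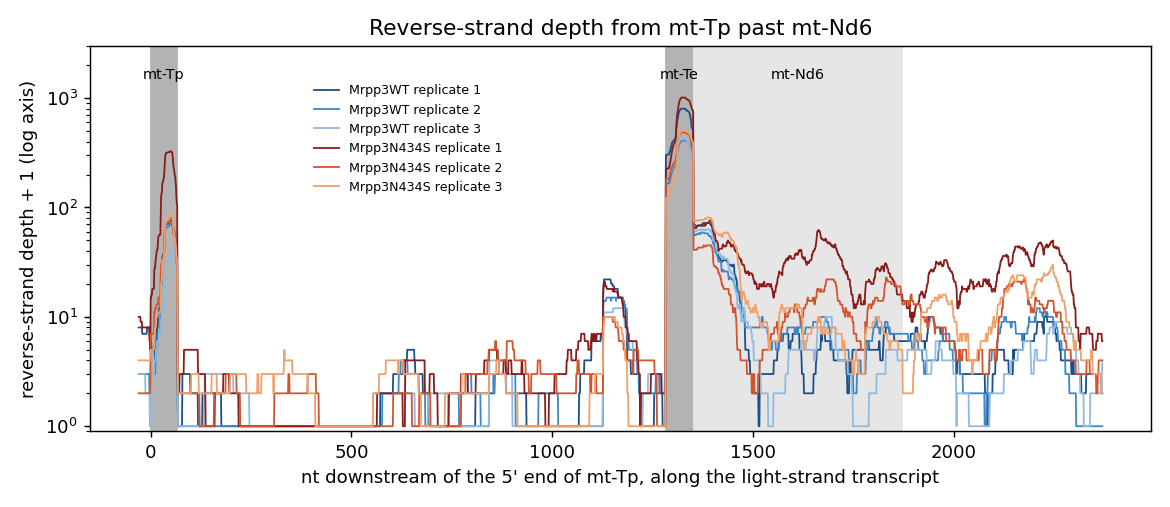
Reverse-strand depth plus 1 (log axis) against distance downstream of the 5′ end of mt-Tp, in nt, for each of the 6 libraries. Dark gray marks mt-Tp and mt-Te, and light gray marks mt-Nd6. Depth peaks inside both tRNAs, is mostly near 1 between them apart from a small peak upstream of mt-Te, and steps down at the border from mt-Te to mt-Nd6.

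mt-Te had a sharp 5′ end at its annotated first base. Depth at the base before it was 0 or 1 in every library, and at the first base it was 300, 160 and 189 for Mrpp3WT against 224, 179 and 121 for Mrpp3N434S. Among 13 tRNAs that could be ranked, only mt-Tq had less depth before the first base relative to the first base. Depth at the first base was 37.5%, 38.8% and 44.5% of the tRNA's highest depth for Mrpp3WT against 22.2%, 37.0% and 23.9% for Mrpp3N434S. The mutant libraries all lay below the wild type, mutant replicate 2 only slightly so, and the means were 40.3% ± 3.72 and 27.7% ± 8.10 (SD, n = 3 each). Groups did not overlap in 4 of 17 tRNAs for this measure (23.5%). The fitted log2 difference was -0.58 (SE 0.22, adjusted p = 0.206 in edgeR). In that test 0 of 16 tRNAs passed (0%), and 3 had an unadjusted p under 0.05. Without mutant replicate 2 the difference was -0.80, with an adjusted p of 0.00899.

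Inside mt-Te, depth rose again towards the anticodon. The largest gains after base 1 came at bases 30, 27 and 32, which added 9.42%, 6.82% and 6.57% of the highest depth on average over libraries. From base 26 to base 38, around the anticodon, depth gained 45.4%, 38.3% and 36.5% of its maximum for Mrpp3WT against 57.7%, 44.2% and 61.5% for Mrpp3N434S. Mutant replicates 1 and 3 gained most, and mutant replicate 2 lay within the wild-type range. The mean depth 5′ of the middle of mt-Te, relative to that 3′ of the middle, was 0.582, 0.601 and 0.662 for Mrpp3WT against 0.429, 0.563 and 0.413 for Mrpp3N434S. These ratios did not overlap, as in 12 of the 33 genes tested (36.4%). The log2 difference was -0.41 (SE 0.12, 95% interval -0.69 to -0.12, adjusted p = 0.161 in edgeR). With edgeR 0 of 33 genes passed this test (0%), and 6 had an unadjusted p under 0.05. Without mutant replicate 2 the adjusted p was 0.00731 and the difference -0.53.

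At its 3′ end, mt-Te kept more of its depth in the mutant libraries. The last base had 63.0%, 65.0% and 57.4% of the highest depth for Mrpp3WT against 75.3%, 69.2% and 76.9% for Mrpp3N434S. All mutant libraries lay above all wild-type libraries, with means of 61.8% ± 3.96 and 73.8% ± 4.04 (SD, n = 3 each), and 5 of 17 tRNAs (29.4%) did not overlap in this measure. The log2 difference was 0.26 (SE 0.09, adjusted p = 0.151 in edgeR), and 1 of 16 tRNAs passed that test (6.25%). At an unadjusted p under 0.05 the share was 25%. Whether single reads spanned both ends cannot be read from depths.

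mt-Tp differed in shape from mt-Te. Its 5′ end was shallow and carried no comparable step. Depth at its first base was 5, 2 and 2 for Mrpp3WT against 14, 6 and 4 for Mrpp3N434S. At the base before it, depth was 5, 1 and 1 for Mrpp3WT against 4, 2 and 3 for Mrpp3N434S. Its highest depth was 75, 70 and 37 for Mrpp3WT against 325, 79 and 83 for Mrpp3N434S, around bases 49 and 50. The rise came around the anticodon, with the largest gains at bases 36, 37 and 35, of 16.1%, 12.5% and 11.6% of the highest depth. From base 26 to base 38 depth gained 67.6% to 81.4% of its maximum for Mrpp3WT against 69.6% to 76.0% for Mrpp3N434S, which overlapped. The ratio of depth 5′ to 3′ of the middle was 0.183, 0.149 and 0.180 for Mrpp3WT against 0.230, 0.245 and 0.176 for Mrpp3N434S (log2 difference 0.35, SE 0.31, adjusted p = 0.755 in edgeR).

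At the 3′ end of mt-Tp the mutant libraries lay lower, where those of mt-Te lay higher. Its last base had 52.0%, 47.1% and 51.4% of the highest depth for Mrpp3WT against 32.0%, 35.4% and 38.6% for Mrpp3N434S. The groups did not overlap, as in 5 of 17 tRNAs (29.4%), of which 4 were higher in the mutant. The means of mt-Tp were 50.2% ± 2.64 and 35.3% ± 3.28 (SD, n = 3 each). The log2 difference was -0.54 (SE 0.15, adjusted p = 0.0996 in edgeR), which did not pass the threshold. In that test 1 of 16 tRNAs passed (6.25%). Depth at the base after the end was 1, 2 and 2 for Mrpp3WT against 3, 2 and 4 for Mrpp3N434S, so nearly all depth ended at or before base 67. The flanks of mt-Tp and the 10 nt before mt-Te were below the mean depth of 10 required for a test.

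**Figure D3:**
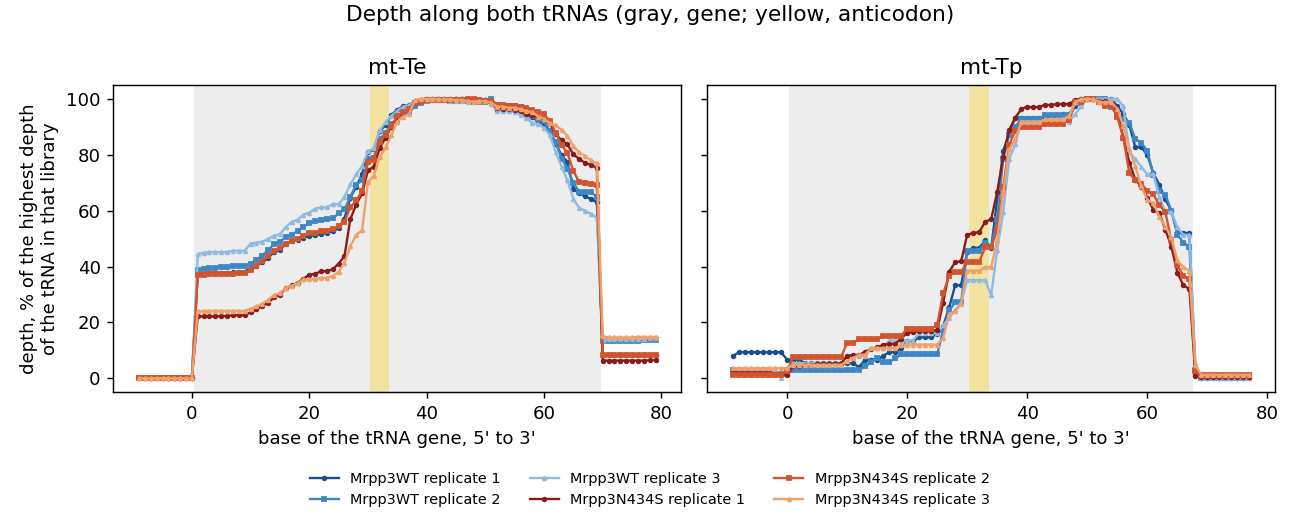
Depth as a percent of the highest depth of that tRNA (vertical axis) at each base of mt-Te and mt-Tp and the 10 nt beside them, 1 line per library. mt-Te starts at 22.2% to 44.5% at base 1 and keeps 57.4% or more to its last base, while mt-Tp rises mainly around the anticodon in yellow.

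On the opposite strand, mt-Te had little depth, between 1.68 and 9.26 on average in raw depth, against 302 or more on its own strand. Raw depth opposite mt-Tp was 68.8, 52.7 and 41.8 for Mrpp3WT against 35.9, 43.2 and 77.3 for Mrpp3N434S. The ratio of its own strand to the opposite one was 0.548, 0.645 and 0.424 for Mrpp3WT against 4.54, 0.898 and 0.501 for Mrpp3N434S. Mutant replicate 1 was again far above the rest, and mutant replicate 3 lay within the wild-type range. The log2 difference was 1.24 (SE 0.69, adjusted p = 0.160 in edgeR), in a test that 3 of 8 genes passed (37.5%). Without mutant replicate 3 it was 1.97 with an adjusted p of 0.0111, and without mutant replicate 1 it was 0.30 with an adjusted p of 0.575.

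At the junction, depth dropped in every library from the last base of mt-Te to the first base of mt-Nd6. For Mrpp3WT, depth fell from 505 to 68, from 268 to 55 and from 244 to 58. For Mrpp3N434S it fell from 761 to 64, from 335 to 40 and from 389 to 76. The depth at mt-Nd6 base 1 was thus 13.5%, 20.5% and 23.8% of that at the last base of mt-Te for Mrpp3WT against 8.41%, 11.9% and 19.5% for Mrpp3N434S. The means of 19.3% ± 5.27 and 13.3% ± 5.69 (SD, n = 3 each) overlapped in their libraries. Depth over the 10 nt after mt-Te relative to the tRNA differed by a log2 value of -0.23 (SE 0.33, 95% interval -0.91 to 0.44, adjusted p = 0.661 in edgeR), in a test that 2 of 20 tRNAs passed (10%). Without mutant replicate 1 its sign changed, to 0.05. Reads that start at mt-Nd6 and reads that cross from mt-Te cannot be told apart in these counts.

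Within mt-Nd6, depth was concentrated at the 5′ start shown above, and less so in mutant replicates 1 and 2. The first 100 bases held 72.8%, 60.8% and 74.6% of the gene's depth for Mrpp3WT against 32.7%, 41.4% and 65.3% for Mrpp3N434S. Mutant replicates 1 and 2 lay below all wild-type libraries, and mutant replicate 3 lay within their range. Normalized depth over those bases was 49.5, 59.0 and 71.8 for Mrpp3WT against 35.5, 35.4 and 58.2 for Mrpp3N434S. Over the remaining bases it was 4.41, 9.09 and 5.82 for Mrpp3WT against 17.4, 12.0 and 7.38 for Mrpp3N434S. The groups overlapped in both stretches. The ratio of depth 5′ to 3′ of the middle of mt-Nd6 was 5.95, 3.73 and 6.13 for Mrpp3WT against 1.29, 1.14 and 5.70 for Mrpp3N434S. Its log2 difference was -1.45 (SE 0.64, 95% interval -2.98 to 0.08, adjusted p = 0.282 in edgeR). Without mutant replicate 3 it was -1.96 with an adjusted p of 0.0105, and without mutant replicate 1 it was -0.96 with an adjusted p of 0.715.

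In windows of 50 nt, 3 of the 10 windows deep enough to test between mt-Tp and the 3′ end of mt-Nd6 rose in the mutant, all inside mt-Nd6. Over both strands of the chromosome, 108 of 293 windows passed the test (36.9%). Of all windows 31.7% rose and 5.12% fell. On the reverse strand alone 11 of 39 passed (28.2%) and 6 rose (15.4%), these 3 included. With library totals as the scale, 29 of the 81 windows passing rose. Between mt-Tp and the end of mt-Nd6, 4 windows then passed and 0 of them rose, and without mutant replicate 1, 2 passed and 0 rose. The window over mt-Nd6 bases 221 to 270 (chrM:13801-13850) had normalized depths of 5.32, 9.24 and 4.87 for Mrpp3WT against 21.2, 11.3 and 9.76 for Mrpp3N434S. These did not overlap, in a measure whose share over all windows was not counted. Its log2 difference was 1.22 (SE 0.42, adjusted p = 0.0138 in edgeR). The windows over bases 271 to 320 and 321 to 370 rose by 1.41 (adjusted p = 0.00466) and 1.31 (adjusted p = 0.00544) on the log2 scale in edgeR. In both of these, mutant replicate 3 lay within the wild-type range, at 5.80 and 5.62. None of the 3 windows passed without mutant replicate 1, where their log2 differences were 0.73, 0.76 and 0.75, or without wild-type replicate 1, where they were 1.001, 0.86 and 0.91. The first window also missed the threshold without wild-type replicate 3, at 1.06 (adjusted p = 0.0950), and with library totals as the scale all 3 missed it, at 0.81, 1.01 and 0.90.

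Depth also went on past the annotated end of mt-Nd6. Over the next 500 nt of the transcript, normalized reverse-strand depth was 3.99, 5.87 and 4.38 for Mrpp3WT against 14.8, 9.37 and 9.43 for Mrpp3N434S. Every mutant library was above every wild-type library, with means of 4.75 ± 0.995 and 11.2 ± 3.12 (SD, n = 3 each). This stretch was picked after its values were seen, and was described and not tested as a unit. The share of comparable stretches without overlap was not counted, and the stretch was not rescaled to library totals. On the main scale 31.7% of the 293 windows tested over both strands rose in the mutant.

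**Figure D4:**
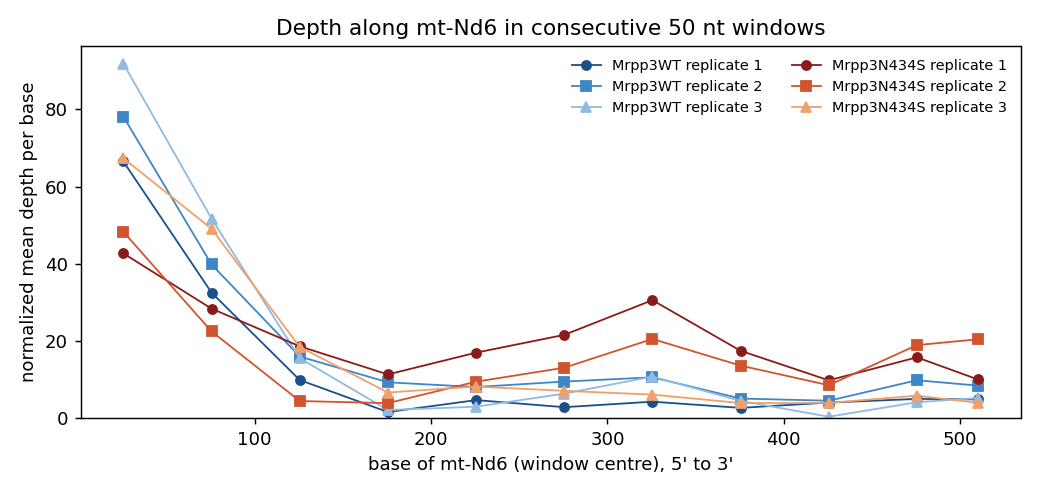
Normalized mean depth per base (vertical axis, from 0) in consecutive 50 nt windows along mt-Nd6, from its first base to its last, 1 line per library. All libraries are highest at the 5′ start, and mutant replicates 1 and 2 are above the rest over bases 301 to 350.

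Over both tRNAs, mismatches above 1% over all libraries were found at 3 bases, namely 9 and 23 of mt-Te and 32 of mt-Tp. At base 9 of mt-Te (chrM:14131), the position that MRPP1 methylates in mitochondrial tRNAs, the mismatched share for Mrpp3WT was 12.7%, 10.8% and 12.4%, at depths of 306, 166 and 194. For Mrpp3N434S the share was 9.21%, 8.24% and 4.92%, at depths of 228, 182 and 122. The mutant libraries all lay below the wild type, with means of 12.0% ± 1.01 and 7.46% ± 2.25 (SD, n = 3 each). How many of the tested sites had groups without overlap was not counted. In gene depth, 15 of 34 genes (44.1%) had such groups. Exact Clopper-Pearson 95% intervals of single libraries overlapped, from 9.22% to 17.0% in wild-type replicate 1 and from 1.83% to 10.4% in mutant replicate 3. The log2 difference in odds was -0.71 (SE 0.35, 95% interval -1.47 to 0.06, adjusted p = 0.629 in edgeR). With edgeR, 0 of the 42 tRNA and rRNA sites tested passed (0%) and 2 (4.76%) had an unadjusted p under 0.05. With limma on log2 odds these numbers were 0 and 1. Over all libraries, 115 of the mismatched bases (93.5%) were A9U, 7 were A9G and 1 was A9C.

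mt-Te also had a lower mismatch at base 23 (chrM:14117), of 3.85%, 3.40% and 1.92% for Mrpp3WT against 4.12%, 2.73% and 2.20% for Mrpp3N434S. The groups overlapped, and the log2 difference in odds was 0.03 (SE 0.50, adjusted p = 0.989 in edgeR). Its sign changed without wild-type replicate 3 (-0.22) or without mutant replicate 1 (-0.32). The substitutions there differed from those at base 9, with G23A making up 43 of 56, G23C 12 and G23U 1. Over the other 67 bases of mt-Te, the mismatched share was 0.315% ± 0.0327 for Mrpp3WT against 0.233% ± 0.0105 for Mrpp3N434S (SD, n = 3 each), without overlap. This difference was not tested, and how many of the other tRNAs had such groups was not counted. No single one of these bases exceeded 0.760% over all libraries.

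At base 9 of mt-Tp, which is an A as in mt-Te, 0 of 35 bases from all libraries were mismatched, which allows a share of up to 8.57% when a count of 0 is read as up to 3 counts. The wider two-sided exact Clopper-Pearson interval reached 10.0% and overlapped that of base 9 of mt-Te, where the share over all libraries was 10.3% (8.61% to 12.1%). The only base of mt-Tp with frequent mismatches was base 32 (chrM:15391), the middle base of the anticodon. There the mismatched counts were 5 of 35, 6 of 32 and 1 of 13 for Mrpp3WT against 5 of 170, 1 of 33 and 3 of 32 for Mrpp3N434S. The shares of 14.3%, 18.8% and 7.69% and of 2.94%, 3.03% and 9.38% overlapped, and the site was too shallow to be tested. The exact Clopper-Pearson interval was 7.21% to 36.4% in wild-type replicate 2 and 0.962% to 6.73% in mutant replicate 1. All 21 mismatched bases were G32U. The other 65 bases had a mismatched share of 0.0998% ± 0.0296 for Mrpp3WT against 0.109% ± 0.0138 for Mrpp3N434S (SD, n = 3 each), and 46 of them were never mismatched.

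**Figure D5:**
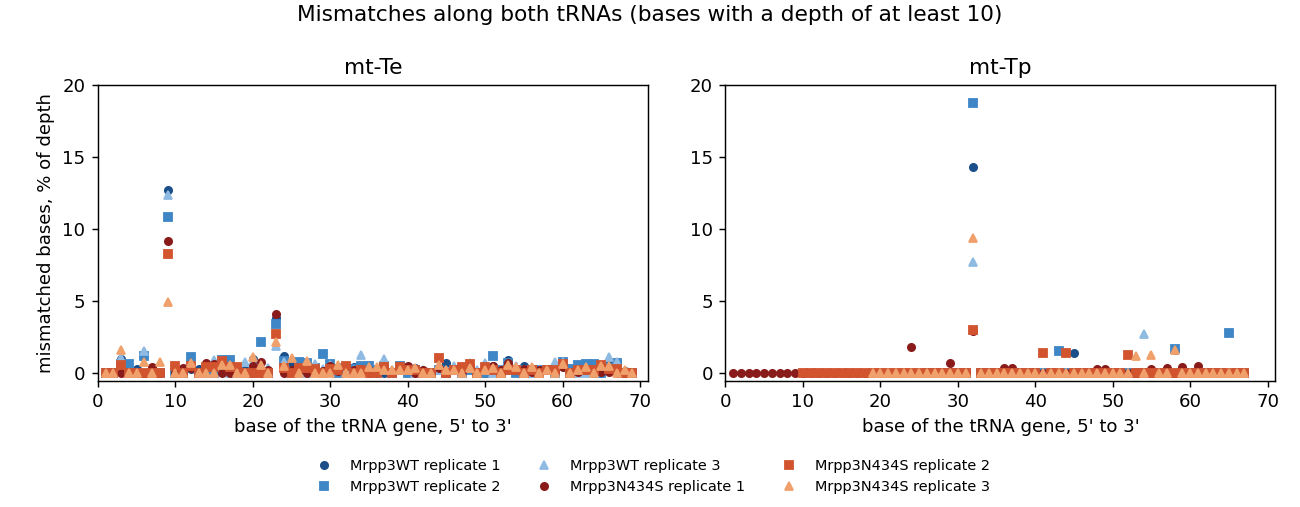
Percent of mismatched bases (vertical axis) at each base of mt-Te and mt-Tp (horizontal axis) in each library, shown where the depth was at least 10. Base 9 of mt-Te reaches 12.7% and base 32 of mt-Tp 18.8%, while most other bases lie near 0.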

How the data were processed

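The labels' protocols give islet RNA extraction with miRNeasy and Illumina small RNA libraries. Trim Galore, cutadapt, FastQC and STAR with build GRCm38.p6 were used, per the submitters' processing notes, with versions not given. The deposited values are counts of each base per strand and position, per the file headers. The sources used here do not name the base counter or its quality filter. Depth over both strands never passed 8000, and at these genes reached at most 1021. Its maximum was 7436 to 7756 in the wild-type libraries against 7997 to 8000 in the mutant libraries. Whether a depth limit held counts down elsewhere, and so library totals and shares of both strands, was not tested. The deposited table of position 9 counts has 6 blocks that match no sample label, so 16 columns of values went unused.

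Mean depths per gene or 50 nt window, rounded, were tested with edgeR 4.0.16 (R 4.3.3) after TMM scaling, for features with a mean of at least 10. Ratios of depths or of mismatched to reference bases used the same quasi-likelihood model with an effect per library. Mismatch sites needed 50 or more bases read in each library and a mean mismatch of at least 1%. Each test had its own Benjamini-Hochberg adjustment, and 0.05 was the threshold. Shares and ratios of the genes were compared by exact permutation (scipy 1.17.1). limma 3.58.1 and DESeq2 1.42.0 were alternatives. Exact 95% intervals cover counting error only, because reads copied by PCR do not count molecules independently, and a count of 0 was read as up to 3 counts. Libraries were not paired by replicate number in the main tests. The labels name no batch. The genes, lists and tests were chosen with earlier results of these data known. Named were the 3 genes in every test, base 9 and the tested sites of both tRNAs, windows past the threshold, and the 2 closest genes per member. The first and last base ratios, base 32 of mt-Tp, the peak upstream of mt-Te and the stretch after mt-Nd6 were added after their values were seen. On simulated data with the real depths, depth changes of 1 and 2 on the log2 scale over 34 genes were recovered in 38.3% and 96.7% of cases. For 42 mismatch sites these shares were 31.2% and 61.2%. The simulated spread between libraries was a fixed value, not estimated from these data. The shares therefore hold for that spread only, and may be lower for genes that varied more, such as mt-Tp.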

Additional observations from a re-analysis of the deposited data

How the results depend on the processing

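The depth calls depend on the scale. Genes passing in the depth test numbered 9 with library totals, 12 with summed tRNA genes, 16 with summed rRNA genes, 10 with summed reverse-strand depth, 6 without a filter and 4 with the maximum depth per gene, against 2, and 0 to 11 without 1 library. For mt-Te, library totals and rRNA genes gave -0.81 and -1.07 (edgeR adjusted p = 0.0210 and 0.00986), tRNA genes and reverse-strand depth gave 0.015 and 0.061, and leaving out 1 library gave -0.58 to -0.25, past the threshold without wild-type or mutant replicate 2. For mt-Nd6, library totals, rRNA genes and maximum depth gave -0.24, -0.50 and -0.43, tRNA genes and reverse-strand depth 0.58 and 0.63, and leaving out 1 library -0.018 to 0.24. For mt-Tp, tRNA genes and maximum depth gave 1.13 and 0.76 (edgeR adjusted p = 0.0174 and 0.0424), library totals and rRNA genes 0.28 and 0.0035, reverse-strand depth 1.20, and leaving out 1 library 0.064 to 1.03. Why they moved was not tested.

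Windows passing numbered 194 with reverse-strand scaling, 213 at 25 nt and 53 at 100 nt, and 53 to 172 without 1 library. From mt-Tp to mt-Nd6 they numbered 5, 9 and 1, and 0 to 6. With library totals 4 passed there and 0 were higher. Of trailer ratios 1 passed against the adjacent 10 nt, and 0 to 2 without 1 library. Without 1 library, 0 to 2 genes passed for the 5′ to 3′ ratio, 0 to 3 for the strand ratio (0 with no filter), 0 to 4 tRNAs for the first base, 0 to 1 for the last base, and 0 to 1 mismatch sites. Base 23 of mt-Te ran from -0.32 to 0.27, and the mt-Te trailer from -0.61 to 0.053.

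As shares of both strands, mt-Te, mt-Nd6 and mt-Tp differed by -0.317, -0.0312 and 0.0099 percentage points, against 0.255, 0.745 and 0.544 of the reverse strand. Without 1 library, the reverse-strand shares differed by 0.152 to 0.750 for mt-Tp, -0.492 to 0.769 for mt-Te and 0.461 to 1.004 for mt-Nd6. The log2 ratio of mt-Te to mt-Nd6 differed by 0.26 with maximum depths, and by -0.71 to -0.25 without 1 library. That of mt-Tp to mt-Nd6 differed by -0.39 with median depths, and by 0.08 to 0.73 without 1 library, and that of mt-Tp to mt-Te by 0.60 to 1.26.

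With the replicate number as a block, 0 genes passed for depth (11 had an unadjusted p under 0.05 in edgeR, and DESeq2 without the block called 2), 1 gene passed for the 5′ to 3′ ratio, and base 23 of mt-Te was at -0.0038. The block moved no other count of calls by over 1.5 times (windows passing were 97, and genes passing for the strand ratio 4) and moved no gene, window or site of the 3 genes across the threshold. Same-numbered libraries correlated at -0.03, -0.27 and 0.23 over 34 genes, and differently numbered ones at -0.31 to 0.33. These values gave no sign of pairing by number, but cannot exclude it.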
